A study of Mus musculus and Canis lupus familiaris and Equus caballus with 9 samples.

Results

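The 7 mouse genes of the Grin family, Grin1, Grin2a, Grin2b, Grin2c, Grin2d, Grin3a and Grin3b, encode the subunits of the NMDA receptor, and they were taken here as a complete family from the 21887 protein-coding genes annotated on the mouse chromosomes. All 7 were found in the annotation. The binding data came from RAW264.7 cells, an established macrophage line of BALB/c origin at passages 13 to 15. NRSF (also called REST) was immunoprecipitated from 2 samples fixed with 1% formaldehyde, and 1 sample of input DNA was sequenced beside them. The labels name no treatment or genetic change of the cells. The series holds the same design for the dog line ML2 and the horse line E.Derm, which are not analysed here.

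NMDA receptors are glutamate-gated cation channels of neurons that admit calcium and are known for their part in synaptic plasticity. Each receptor needs the GluN1 subunit, encoded by Grin1, which binds glycine or D-serine. It joins GluN2 subunits (Grin2a to Grin2d), which bind glutamate, or GluN3 subunits (Grin3a and Grin3b), which bind glycine. NRSF is a repressor with zinc fingers. It recognises an extended DNA element, the NRSE or RE1, and is known for keeping neuronal genes silent in cells that are not neurons. In the rat, such an element has been described in the promoter region of Grin1, and NRSF has been linked to the developmental fall of Grin2b in the hippocampus.

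The mouse data consist of 1 list of 2357 peaks, each 400 bp wide, given by position in mm10. The list is tied to both immunoprecipitated samples, has no score, height or p-value for a peak, and has no value per replicate. No replicate error can therefore be given, the read depth is unknown, and a strong peak cannot be told from a weak one. A gene without a peak is a gene at which none was called at the authors' threshold, not one shown to be free of NRSF. The list holds no expression values, so neither the transcript levels of these genes nor the macrophage label could be examined. As a description of the cells' own genes, 1 of 10 macrophage markers had a peak, against 7.49% of all protein-coding genes. It was the integrin gene Itgam, with the peak midpoint 2.25 kb outside its span.

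Of the 7 NMDA receptor subunit genes, 2 had a peak and 5 had none. Grin1 and Grin2a each had 1 peak, with its midpoint inside the gene span, as 4.44% of all protein-coding genes had. No member had 2 or more peaks, which 1.01% of all protein-coding genes had. A gene was counted when a peak midpoint lay in its annotated span or within 10 kb of either end. By that rule 2 of 7 members (28.6%) had a peak, against 7.49% of all protein-coding genes. The latter is 1640 of 21887, with an exact 95% interval of 7.15 to 7.85%, counting error only. That interval treats genes as independent, although neighbouring genes can share a peak. With 7 genes and 1 list there is no test of the difference between the members and all genes. The family was chosen with earlier results of these data known.

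The Grin1 peak lay across the start of the gene. Grin1 (gene ID 14810) spans chr2:25291177-25319187, which is 28 kb, and is read from the minus strand, so that its annotated start site is the upper end of the span. The peak covered chr2:25318825-25319225, and its midpoint was 162 bp downstream of the start site. The last 38 bp of the peak lay upstream of the start, and 362 bp lay inside the gene. Of all protein-coding genes, 83 (0.379%) had a peak midpoint at least this close to an annotated end, counting both ends. The sequence below is shown because it is the part of the Grin1 promoter that the peak reaches. It gives the 250 bases before the start site, chr2:25319188-25319437 on the minus strand of GRCm38.p6 (RefSeq), 5′ to 3′, with the 38 bases covered by the peak in capitals.
Grin1: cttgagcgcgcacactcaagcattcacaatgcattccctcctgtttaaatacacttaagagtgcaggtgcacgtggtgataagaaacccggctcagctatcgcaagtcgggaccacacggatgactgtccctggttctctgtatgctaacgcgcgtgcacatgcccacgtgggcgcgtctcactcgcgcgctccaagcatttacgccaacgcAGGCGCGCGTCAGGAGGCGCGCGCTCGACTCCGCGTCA

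The rest of the peak, which includes its midpoint, lies downstream of these bases. In the RefSeq promoter windows of 300 bp, which run from 250 bases before a start site to 50 after it, 145 of 32851 windows (0.441%) overlapped a peak, and the Grin1 window was one of them. Windows were present for Grin1, Grin2c, Grin2d and Grin3b. The annotated start sites of Grin2c, Grin2d and Grin3b lay inside their gene spans and not at an end. The Grin1 window was rich in CpG, with 33 CpG dinucleotides, more than 91.4% of all windows held. The windows of Grin2c, Grin2d and Grin3b held 22, 12 and 3 CpG dinucleotides. The median was 7 over all windows and 18 over the windows that overlapped a peak. The Grin1 window had a GC content of 60.7%, equal to the median of the windows at peaks, against 70.0% for Grin2c, 56.0% for Grin2d and 48.3% for Grin3b.

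Short words from the NRSE were then looked for in these windows. The words were CAGCACC for its left part and GGACAG for its right part, searched on both strands without mismatch, and the words do not overlap each other. The left word was in none of the 4 member windows, whereas 7.14% of all windows held it. The right word was in the windows of Grin1, Grin2d and Grin3b, each time on the strand opposite to the gene, and 22.2% of all windows held it. The stretches below are shown because they hold the only matches in the member windows. They are read along each gene's own strand in GRCm38.p6 (RefSeq), with the match in capitals.
Grin1: ccacacggatgaCTGTCCctggttctctgt
Grin2d: tctcccttatctCTGTCCctcatctctgtt
Grin3b: aatctccaaaaaCTGTCCgagtgtggggag

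The stretches are at chr2:25319296-25319325 (minus strand) for Grin1, chr7:45866700-45866729 (minus strand) for Grin2d and chr10:79970503-79970532 (plus strand) for Grin3b. The Grin1 match began 126 bases before the start site and lay outside the peak. The other 2 genes had no peak nearby. None of the 4 windows held both words as a pair in the order of the NRSE with 0 to 20 bases between them, with or without 1 mismatch. Of the windows that overlapped a peak, 16 of 145 (11%) held such a pair without mismatch, and 27 of the 32706 windows without a peak (0.0826%) did. For comparison, the window of Gria2, an AMPA receptor subunit gene, overlapped a peak and held the pair with 1 mismatch and 2 bases between the words. With 1 mismatch allowed, 28.3% of the windows at a peak held the pair, and 1.9% of the windows without a peak did. It was chosen after its values were seen and is shown as an example of the pair under a peak, at chr3:80802983-80803012 on the minus strand, with both words and the 2 bases between them in capitals and the element on the opposite strand.
Gria2: caaagcgCTGTCCGCGGTGCTAaaatcgaa

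A window without the pair says only that these letters are not within it. Most of the Grin1 peak, and all of the Grin2a peak, lies outside the windows and was not searched.

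Grin2a (gene ID 14811) carried its peak deep inside a long gene. GluN2A is a main GluN2 subunit of the mature forebrain. The gene spans chr16:9567901-9996083, which is 428 kb, and the peak covered chr16:9836530-9836930, 62.8% of the way along the span from its lower end. The midpoint was 269 kb from the lower end and 159 kb from the upper end, with no other annotated gene within 10 kb. Of the 1161 mouse peaks inside a protein-coding gene, 91 (7.84%) lay at least this far from both ends of their gene. The median distance to the closer end was 12.1 kb. Only a long gene can hold a peak this far from both ends, and the median span of all protein-coding genes was 17.2 kb. Both values therefore depend on gene length. The gene table gives neither strand nor exons, so that the Grin2a peak could not be placed relative to the start site, an exon or an intron.

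The Grin1 and Grin2a peaks thus differed in position, one across a start site and the other far from both gene ends. They also differed in their surroundings. The peak closest to that of Grin1 was 83.5 kb away, and 35.7% of mouse peaks had a closer neighbour. The peak closest to that of Grin2a was 665 kb away, and 78.7% of mouse peaks had a closer neighbour. The peak at Grin1 had no other protein-coding gene within 10 kb, and neither did that at Grin2a, so that neither was counted for another protein-coding gene.

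**Figure D1:**
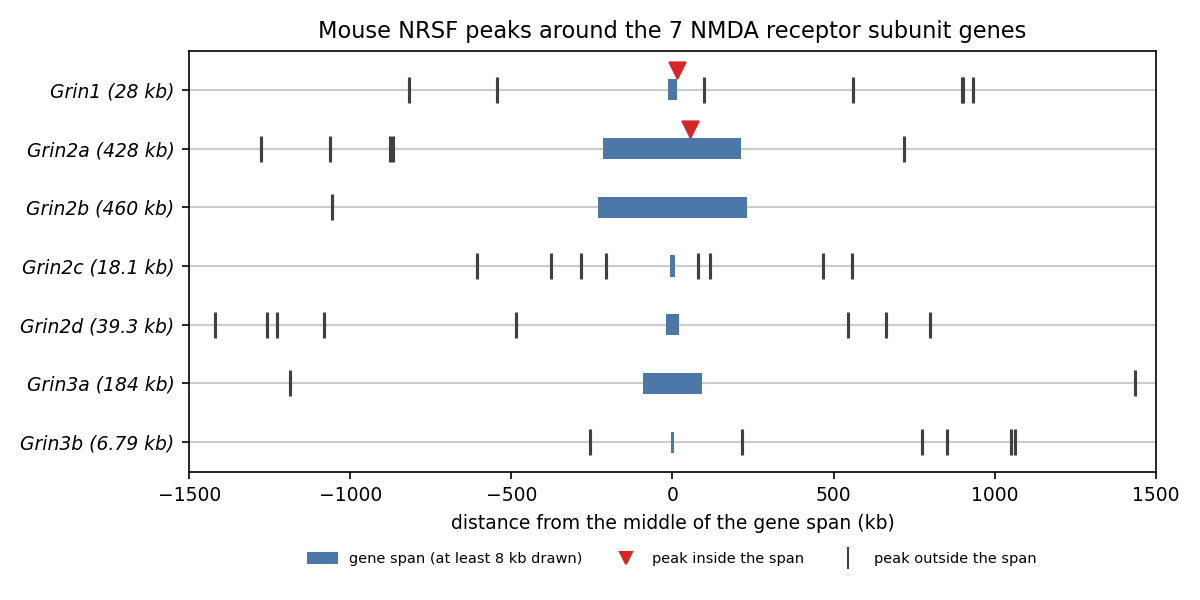
Peaks of the mouse NRSF list around each NMDA receptor subunit gene, with distance in kb from the middle of the gene span on the x axis and 1 gene per row. Blue bars are gene spans, red triangles are peaks inside the span and black ticks are peaks outside it; Grin1 and Grin2a hold 1 peak each, and the closest peak of the other genes lies 69.0 to 1094 kb from the span.

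Among the other GluN2 genes, Grin2b, Grin2c and Grin2d, none had a peak within 10 kb. Grin2b (gene ID 14812) encodes GluN2B, a subunit prominent in the young forebrain, and spans chr6:135713221-136173615. At 460 kb it is slightly longer than Grin2a. Its closest peak, at chr6:134888080-134888480, was 825 kb below the span, inside Gpr19, which encodes an orphan G protein-coupled receptor. The closest peak on the other side was 4453 kb above the span, inside Aebp2, which encodes a partner of the Polycomb repressive complex PRC2. Grin2b therefore lay in an interval of 5.74 Mb between consecutive peaks, against a median of 0.434 Mb over the 2336 such intervals. It was longer than 97.0% of them, but an interval around a gene of 460 kb without a peak must exceed 460 kb. Its rank is therefore partly fixed by the length of the gene. Of the protein-coding genes of 100 kb or more, 73% had a closer peak than Grin2b had.

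Grin2c (gene ID 14813), which encodes the GluN2C subunit of cerebellar granule cells, spans chr11:115249169-115267297, or 18.1 kb. It had the closest peak among the 5 members without one, at chr11:115336095-115336495 and 69.0 kb above the span, inside the otopetrin gene Otop3. On the other side the closest peak was 197 kb away, inside Cd300e, a myeloid receptor gene. Of the protein-coding genes under 20 kb, 18.8% had a peak at least as close as Grin2c had. Within 1 Mb of its span Grin2c had 8 peaks, as many as Grin1, and 93.8% of protein-coding genes had fewer.

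Grin2d (gene ID 14814) encodes GluN2D, a subunit of early development and of some interneurons, and spans chr7:45831883-45871194, or 39.3 kb. Its closest peaks were 466 kb below the span at chr7:45365995-45366395 and 526 kb above it at chr7:46396645-46397045. The lower peak lay inside Ppfia3, which encodes a liprin of the presynaptic active zone. The upper one lay inside Kcnc1, which encodes a voltage-gated potassium channel. Both flanking peaks were thus at other genes, 824 bp and 626 bp from an end of these genes.

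Neither GluN3 gene had a peak within 10 kb. Grin3a (gene ID 242443), whose GluN3A subunit is prominent in early postnatal life, spans chr4:49661611-49846023, or 184 kb. Its closest peak, at chr4:48567670-48568070 below the span, was 1.98 kb from Msantd3. It was 1094 kb from Grin3a, the largest distance among the 7 genes. Of the protein-coding genes of 100 kb or more, 78.8% had a closer peak. No peak lay within 1 Mb of Grin3a, which was the case for 19.5% of all protein-coding genes. The interval between its flanking peaks was 2.62 Mb.

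Grin3b (gene ID 170483), whose GluN3B subunit is known from motor neurons, spans chr10:79970397-79977190 and is the shortest member at 6.79 kb. Its closest peak, at chr10:80190750-80191150, was 214 kb above the span and 0.940 kb from the ephrin gene Efna2. On the other side the closest peak was 252 kb below the span, inside Hcn2, which encodes a channel opened by hyperpolarisation. The interval between them was 0.473 Mb. Of the protein-coding genes under 20 kb, 42.3% had a peak at least as close as Grin3b had. The genes named at the flanking peaks of these members were chosen by position, as the closest protein-coding gene to the peak, after the values were seen.

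The lengths of the members bear on these counts, since a longer gene has more room for a peak. Of the 2 members under 20 kb, Grin2c and Grin3b, none had a peak, against 5.11% of all protein-coding genes of that length. Of the 2 members of 20 to 100 kb, Grin1 had a peak and Grin2d had none, against a share of 7.82%. Of the 3 members of 100 kb or more, Grin2a had a peak and Grin2b and Grin3a had none, against 18.1%. In each class the count differs from what that share would give by at most 1 gene, so that no statement on the family as a whole can rest on it. The median distance from the gene span to the closest peak was 214 kb over the 7 members and 298 kb over all protein-coding genes. Among genes of 100 kb or more the order was the other way, with a median of 825 kb over the 3 members and 335 kb over all genes of that length. The former is the Grin2b value alone, with Grin2a at 0 kb and Grin3a at 1094 kb, so no trend can be read from it. The spans of the 3 long members, 1.07 Mb of the 1.17 Mb of all 7, held 1 peak or 0.932 per Mb, against 0.867 per Mb over all protein-coding genes of 100 kb or more.

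**Figure D2:**
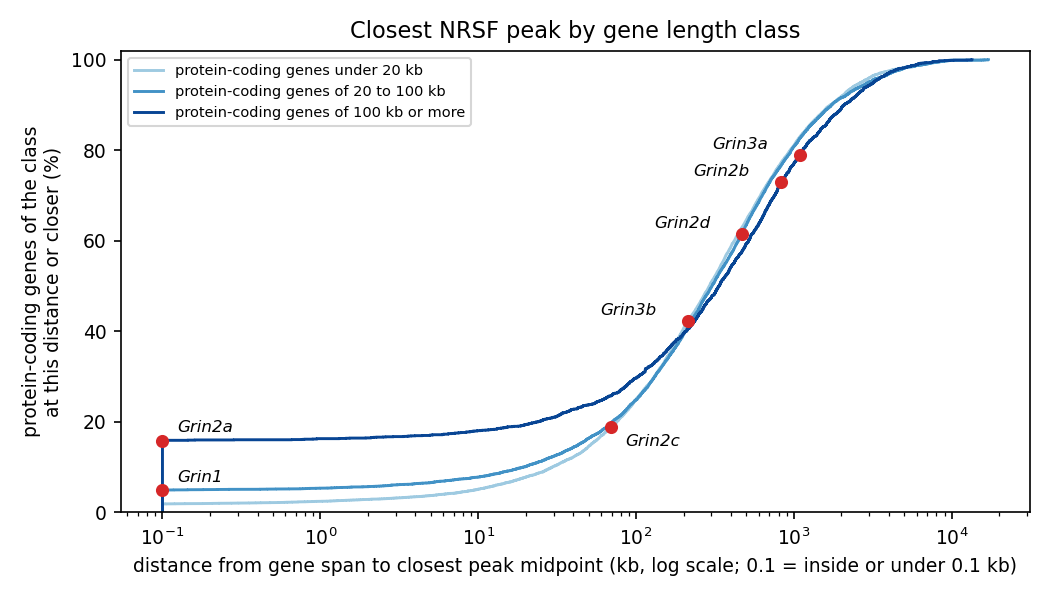
Cumulative share of protein-coding genes (y axis, %) by distance from the gene span to the closest peak midpoint (x axis, kb, log scale), for 3 classes of gene length. Red points place each NMDA receptor subunit gene on the curve of its own class; Grin1 and Grin2a stand at the left edge with a peak inside the span, and Grin3a, at 1094 kb, stands farthest right.

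The count of 2 members, Grin1 and Grin2a, was the same at every reach from 0 to 50 kb around the span, while the share of all protein-coding genes with a peak went up from 4.44% to 16.2%. At 100 kb Grin2c was added, which made 3 of 7 members (42.9%), against 25.4% of all protein-coding genes. At 500 kb Grin2d and Grin3b were added as well, which made 5 of 7 members (71.4%), against 63.7% of all protein-coding genes. Grin2b and Grin3a had no peak even at that reach. When only windows of 10 kb around both gene ends were counted, Grin2a dropped out and Grin1 alone remained, against 5.63% of all protein-coding genes.

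**Figure D3:**
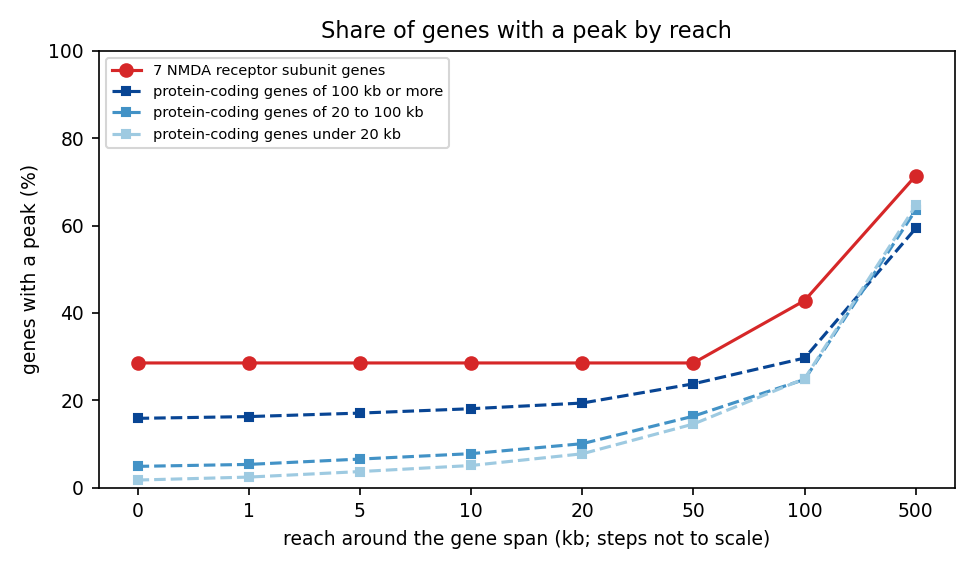
Share of genes with a peak (y axis, %) as the reach around the gene span widens (x axis, kb, steps not to scale). The red line is the 7 NMDA receptor subunit genes and the dashed lines are 3 length classes of protein-coding genes; the red line stays at 28.6% from 0 to 50 kb and stands at 71.4% at 500 kb.

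Among the other ionotropic glutamate receptor genes, 6 of 11 had a peak (54.5%), against 7.49% of all protein-coding genes and 18.1% of those of 100 kb or more. Of these 11 genes, 10 are 100 kb long or more, whereas 3 of the 7 NMDA receptor subunit genes are. The 6 were Gria2 of the AMPA class, Grik2, Grik3, Grik4 and Grik5 of the kainate class, and Grid1 of the delta class. Their difference from the NMDA receptor subunit genes was not tested.

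Genes whose products work with the NMDA receptor were counted in 4 lists drawn from general knowledge. The lists were chosen with earlier results of these data known, so their difference from the background was not tested. Of the 40 partner genes, 12 had a peak (30.0%), against 7.49% of all protein-coding genes, and the median distance to the closest peak was 105 kb, compared with 298 kb over all protein-coding genes. Partner genes of 100 kb or more had a peak at 5 of 17 (29.4%, against 18.1% of all genes of that length), and shorter ones at 7 of 23 (30.4%, against 6.17%). Of the 12 genes, 11 had a peak midpoint inside the span. When only windows of 10 kb around both gene ends were counted, 4 of the 40 had a peak, against 5.63% of all protein-coding genes.

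The scaffold proteins that hold the receptor at the postsynaptic density had a peak at 5 of 14 genes (35.7%), against 7.49% of all protein-coding genes. Of these 14 genes 8 are 100 kb long or more. A peak was present at 18.1% of all protein-coding genes of that length and at 6.17% of those under 100 kb. The 3 with the shortest distances to a gene end were Dlgap3, with a midpoint 5.41 kb inside an end, Shank1, with one 24.3 kb inside, and Dlgap4, which had 2 peaks, the closer 39.4 kb inside. The other 2 were Dlg2, with a peak 792 kb from an end of its span of 1973 kb, and Shank2, both named after their values were seen. Dlg4, which encodes PSD-95, the best known scaffold of the receptor, had no peak and lay 103 kb from the closest one.

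Of 12 signalling partners, 5 of them 100 kb long or more, 2 had a peak (16.7%), against 7.49% of all protein-coding genes and 18.1% of those of 100 kb or more. They were Camk2b, a subunit gene of the calcium-dependent kinase CaMKII, with a midpoint 46.9 kb inside an end, and Kalrn, whose product acts in dendritic spines, with one 173 kb inside. Both peaks lay well away from the gene ends, unlike that at Grin1.

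Of 6 genes that set the supply of the co-agonists glycine and D-serine, 3 had a peak (50%), against 6.17% of all protein-coding genes under 100 kb. Slc1a4, a transporter of neutral amino acids that include D-serine, had a midpoint 1.10 kb inside an end. Slc6a5, the glycine transporter GlyT2 of glycinergic neurons, had one 3.63 kb inside, and Dao, the enzyme that breaks down D-serine, had one 10.3 kb inside. All 6 genes are shorter than 100 kb. Srr, which makes D-serine, had no peak, and neither had Slc6a9 or Slc7a10. Their closest peaks lay 246, 24.3 and 483 kb away, in that order.

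Of 8 trafficking and auxiliary genes, 4 of them 100 kb long or more, 2 had a peak (25%), against 7.49% of all protein-coding genes and 18.1% of those of 100 kb or more. Lin7b, an adaptor in the transport of the receptor, had a midpoint 1.70 kb outside its span, and this is the peak inside Ppfia3 that is also the closest to Grin2d. Neto1, an auxiliary protein of kainate and NMDA receptors, had one 35.5 kb inside an end. Grina, whose name recalls the receptor but which belongs to another protein family, had no peak.

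**Figure D4:**
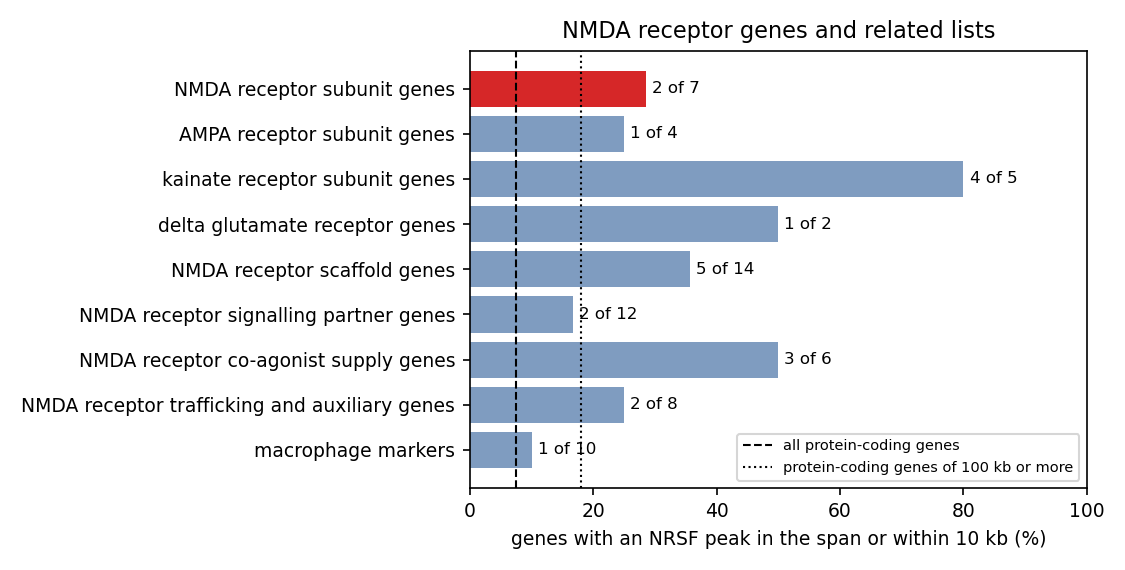
Share of genes with an NRSF peak in the span or within 10 kb (x axis, %) for the NMDA receptor subunit genes (red), the other ionotropic glutamate receptor genes, 4 lists of partner genes and macrophage markers. Numbers beside the bars are genes with a peak of genes in the list; the dashed line marks all protein-coding genes (7.49%) and the dotted line those of 100 kb or more (18.1%).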

How the data were processed

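Per the labels, 6 NRSF immunoprecipitated samples and 3 input samples were prepared from 3 species, with fragments of 200 to 300 bp. The submitters' processing notes name Bowtie 0.12.8 and MACS 1.4.2, with no role given, and the build mm10. The threshold, the way the samples were combined and the setting of a common peak width are not stated in these sources. The values the authors deposited are peak starts and ends only; whether they count from 0 or 1 is not stated, which leaves 1 bp of uncertainty.

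Gene spans were taken from RefSeq's gene table for GRCm38.p6 (another name of the mm10 assembly), and strands and promoter sequences from a RefSeq table of the same build, which holds no entry for Grin2a, Grin2b and Grin3a. Distances run from the peak midpoint. The members and the gene lists were chosen with earlier results of these data known, and so are described by counts beside the share over all protein-coding genes. Of each partner list, up to 3 genes are named, those whose peak midpoint lay nearest to an end of the gene. Dlg2, Shank2, Dlg4, Srr, Slc6a9, Slc7a10, Grina and Gria2 were named outside this rule, after their values were seen. So were the other glutamate receptor genes and the genes at flanking peaks. The alternatives were other reaches, any overlap, gene ends only, all annotated genes and a mismatch in the searched words; reaches of 100 and 500 kb were added after the data were seen. The counting was tested on simulated data. Python 3.11.15 with numpy 2.4.6, pandas 2.3.3 and scipy 1.17.1 was used. The dog, horse and human lists were not used here.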

Additional observations from a re-analysis of the deposited data

How the results depend on the processing

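The number of NMDA receptor subunit genes with a peak was 2 at reaches of 0, 1, 5, 20 and 50 kb and with any overlap counted. It was 1 with gene ends only, 3 at 100 kb and 5 at 500 kb. The peaks at these genes numbered 1, 4 and 12 in the last 3 settings. Of the 40 partner genes, 4 had a peak with gene ends only, 19 within 100 kb and 33 within 500 kb, against 12 within 10 kb. The share of protein-coding genes with a peak moved with the reach by construction: 4.44% at 0 kb, 5% at 1 kb, 6.20% at 5 kb, 9.89% at 20 kb, 16.2% at 50 kb, 25.4% at 100 kb and 63.7% at 500 kb. It was 5.63% with gene ends only and 5.02% over all annotated genes. Promoter windows at peaks held the pair of words in 28.3% with 1 mismatch allowed and in 11% without, and windows without a peak in 1.9% and 0.0826%. No paired analysis was possible because the list holds no value per sample, and no sample could be left out for the same reason. A stricter peak threshold could not be tried without scores. With 7 members, a single gene weighs heavily, and a peak below the authors' threshold would not be seen.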
